A study of Mus musculus with 10 samples.

Results

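The 40 cell cycle and DNA replication genes were examined in cultured mouse hepatocytes exposed to a fatty acid with or without Neurotropin. They were taken by symbol from a fixed list, which uses no measured value as a criterion, and cover the D-type cyclins and their kinases (5 genes), the machinery of S phase entry (8 genes), inhibitors of cyclin-dependent kinases (4 genes), the helicase that is loaded at replication origins with its licensing factors (8 genes), nucleotide supply with the replication clamp (4 genes), and G2 and mitosis (11 genes). The list was, however, chosen with earlier results of these data known. All 40 of the 40 genes were found among the 18055 genes listed in the 10 libraries, and all 40 were among the 14097 genes that passed the filter on low counts.

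RNA sequencing was performed on primary hepatocytes, the parenchymal cells of the liver, taken by collagenase perfusion from livers of wild-type C57BL/6 mice and plated on collagen I. The 5 groups held 2 libraries each, and every group shared this strain and culture. The medium was DMEM with fetal bovine serum per the labels, and the methods add an overnight change to medium without serum ahead of treatment. The Vehicle group received no fatty acid, the PA group 200 µM palmitate (PA, a saturated fatty acid) for 24 h, and the LA group 12 µM linoleate (LA, a polyunsaturated fatty acid) for 24 h. The PA+NTP and LA+NTP groups were given Neurotropin (NTP, a non-protein extract of inflamed rabbit skin that is used as an analgesic) at 0.4 NU/mL for 1 h before the same fatty acid. The doses of PA and LA differ, there was no group with NTP alone, and no source used here says whether the 2 libraries of a group came from separate mice, so that the p-values measure the spread between these libraries, which may be technical.

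Progress through the cell cycle is driven by cyclins, which bind and activate cyclin-dependent kinases (CDKs). D-type cyclins with Cdk4 or Cdk6 phosphorylate the Rb protein, which releases E2F factors to activate genes for S phase, cyclin E and cyclin A act with Cdk2 at the start of and during DNA synthesis, and cyclin B with Cdk1 drives mitosis. Hepatocytes in the adult liver are mostly quiescent, can enter the cycle after loss of liver mass or isolation, and often replicate their DNA without dividing. In bulk RNA, fewer cells in a phase and less RNA per cell cannot be told apart.

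Mitotic genes had the lowest levels of the 40 genes as a group, although the roles overlapped. Levels are given in FPKM, fragments per kilobase of transcript scaled to library size, on which genes can be compared because the value is divided by length. Cdkn1a, which encodes the CDK inhibitor p21, had the highest mean level (137 FPKM over the 10 libraries), followed by Cdk4 (117 FPKM) and Pcna, the sliding clamp of DNA polymerase (47.4 FPKM). The helicase and licensing genes lay between 3.22 and 21.4 FPKM on average. The 11 genes of G2 and mitosis were the lowest as a group, with mean levels between 0.162 and 1.58 FPKM, which placed them between percentiles 5.96 and 25.9 of the tested genes. Of the other roles, E2f2, Cdkn2c and Cdkn2d, had mean levels inside that range. The 11 mitotic genes had between 3 and 696 counts in a library.

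**Figure D1:**
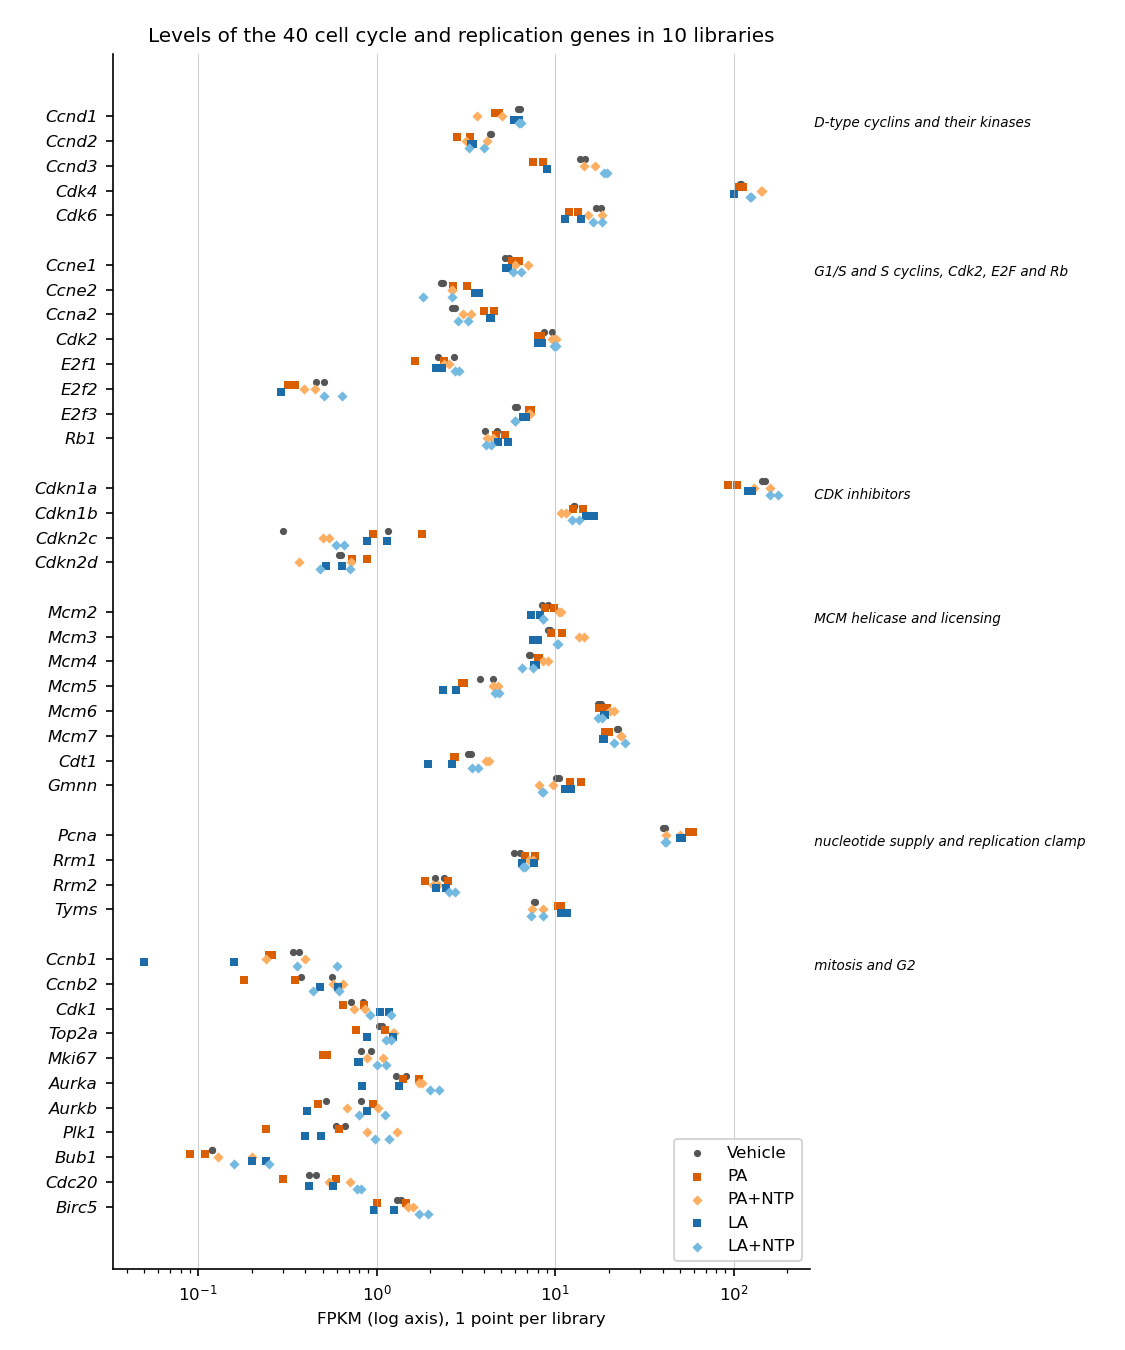
Level of each of the 40 genes in every library, in FPKM on a log axis, with 1 point per library, groups by colour and genes ordered by role. Cdkn1a and Cdk4 lie near or above 100 FPKM in nearly all libraries, and the genes of G2 and mitosis lie mostly below 2 FPKM.

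The libraries differed in depth, in cell type markers and in how counts varied with base composition. The total ranged from 13142588 expected counts (PA replicate 1) to 60046937 (LA+NTP replicate 2). Markers of hepatocytes were present in every library, with all 7 detected and a summed level of 2310 to 4180 FPKM, lowest with PA (2310 to 2540) against 3290 to 3500 in Vehicle. Markers of other liver cells were also detected. The 7 macrophage markers summed to 126 to 296 FPKM, and the 7 stellate cell markers to 9.34 to 18.0 FPKM. The 7 sinusoidal endothelial markers summed to 23.6 to 34.3 FPKM, and the 6 cholangiocyte markers to 407 to 704 FPKM. The filter on low counts kept 6 of the macrophage and 4 of the cholangiocyte markers. Of the latter, Cftr was at trace levels in every library. The 6 of 7 lymphocyte markers that were listed summed to 0.57 to 1.42 FPKM, and 5 of 6 neutrophil markers had no entry in any of the 10 tables, which leave out genes below 0.01 FPKM, and were taken as 0. The deviation of a gene's count from its mean over all libraries followed the GC content of its transcript, with a Spearman correlation across 13930 genes of 0.389 to 0.424 in Vehicle, -0.482 to -0.471 in PA, -0.573 to -0.566 in LA, 0.345 to 0.408 in PA+NTP and 0.535 to 0.574 in LA+NTP. Because this trend divides the libraries in the same way as the treatments, each call below is also given after the trend was removed.

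Few of the 40 genes were called in any comparison. A gene was called when its adjusted p (edgeR quasi-likelihood test, Benjamini-Hochberg over 14097 genes) was under 0.05 and its fold change at least 1.5. With PA against Vehicle, 1 gene rose and 2 fell, where 6.00% of all tested genes were called higher and 8.92% lower. With LA against Vehicle, 3 rose and 3 fell, against 3.53% and 7.11% of all genes. With NTP added to PA, 4 rose and 2 fell, against 8.74% and 5.11% of all genes, and with NTP added to LA, 6 rose and 1 fell, against 11.7% and 7.57%. These counts lay near what the shares of all genes give for a list of 40. The median log2 fold change of the 40 genes was -0.00 with PA, -0.03 with LA, 0.16 with NTP added to PA and 0.13 with NTP added to LA, where that of all tested genes was -0.01, -0.01, 0.01 and 0.01. The comparisons of a fatty acid with Vehicle and of NTP with that fatty acid share the libraries of the fatty acid, so opposite signs in them are not independent of each other.

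**Figure D2:**
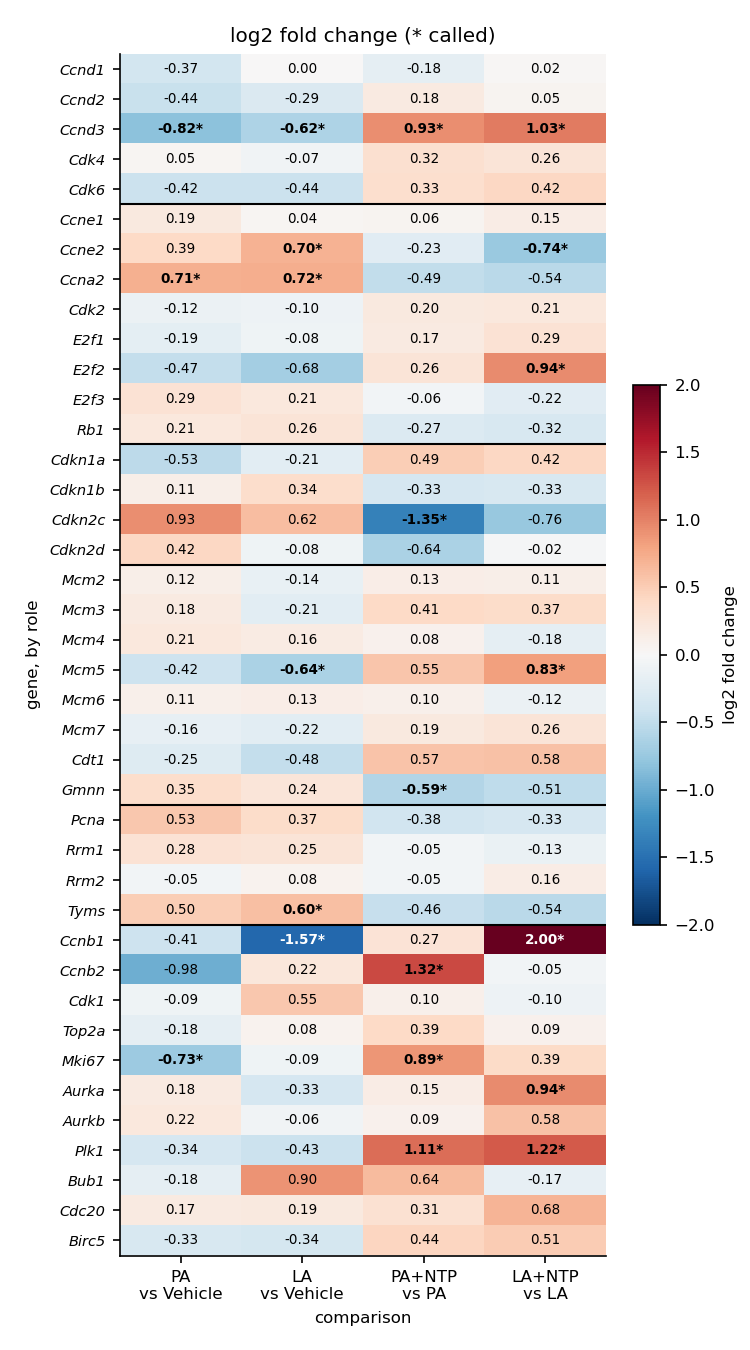
Log2 fold change of the 40 genes (rows, by role, with lines between roles) in 4 comparisons (columns), from blue (lower) to red (higher). An asterisk marks a called gene, and Ccnd3 is the only one of the 40 with an asterisk in all 4 columns.

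Ccnd3, which encodes cyclin D3, was lower with either fatty acid and higher with NTP, and the other D-type cyclins were not called. It stood at 13.8 and 14.7 FPKM in Vehicle, 8.55 and 7.54 in PA, 14.5 and 16.8 in PA+NTP, 9.01 and 9.06 in LA, and 18.7 and 19.5 in LA+NTP. The PA and LA libraries lay below all 6 others, with no overlap. Ccnd3 fell with PA (log2 fold change -0.82, SE 0.10, adjusted p = 1.87e-05) and with LA (-0.62, SE 0.096, adjusted p = 1.75e-04). It rose when NTP was added to PA (0.93, SE 0.098, adjusted p = 5.79e-06) and to LA (1.03, SE 0.093, adjusted p = 9.07e-07). The transcript of Ccnd3 was the second richest of the 40 in GC (58.4%), and with the GC trend removed the log2 fold changes were -0.42, -0.18, 0.50 and 0.47 and none was called. The call with LA was also lost without Vehicle replicate 2 (-0.57), and 29.6% of the 31-base sequences of Ccnd3 occur in transcripts of other genes, mainly in Bysl on the opposite strand, so that its reads are partly uncertain.

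The other D-type cyclins and their kinases moved less. Cdk4, the most abundant of them, stood at 108.3 and 109.7 FPKM in Vehicle, 106.8 and 112.9 in PA, 141.6 and 144.1 in PA+NTP, 100.1 and 100.7 in LA, and 123 and 124.4 in LA+NTP. Both NTP groups were above every library of the other groups. The difference was below the fold of 1.5, at 0.32 on the log2 scale (SE 0.055, adjusted p = 3.11e-04) when NTP was added to PA and 0.26 (SE 0.055, adjusted p = 1.10e-03) when it was added to LA, and 31.3% of the 31-base sequences of Cdk4 occur in other genes, mostly in its neighbour Tspan31. After removal of the GC trend, these log2 fold changes were 0.12 (adjusted p = 0.127) and 0.03 (adjusted p = 0.726). Cdk6, the partner kinase of Cdk4, had log2 fold changes of -0.42 with PA and -0.44 with LA, and of 0.33 and 0.42 with NTP, none called. With the GC trend removed, Cdk6 was called with LA and with NTP added to LA. Ccnd1 and Ccnd2, the mitogen-responsive D-type cyclins, were not called. The log2 fold changes of Ccnd1 were -0.37, 0.00, -0.18 and 0.02 with PA, LA, NTP added to PA and NTP added to LA, and those of Ccnd2 were -0.44, -0.29, 0.18 and 0.05.

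Among the S phase cyclins, cyclin A2 went the other way and was higher under both fatty acids. Ccna2, the cyclin of S phase and G2, stood at 2.66 and 2.75 FPKM in Vehicle, 3.99 and 4.56 in PA, 3.04 and 3.36 in PA+NTP, 4.35 and 4.31 in LA, and 2.85 and 3.26 in LA+NTP. Every PA and LA library was above every other library. Ccna2 rose with PA (log2 fold change 0.71, SE 0.13, adjusted p = 5.70e-04) and with LA (0.72, SE 0.13, adjusted p = 4.98e-04), and its log2 fold changes of -0.49 and -0.54 with NTP were below the fold of 1.5. With the GC trend removed, the rise with PA was still called and that with LA (0.58) was not. Exons of Ccna2 overlap those of Exosc9 on the opposite strand, which share 16.5% of its 31-base sequences.

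Ccne2, an E-type cyclin that partners Cdk2 at the start of S phase, was called under LA. It stood at 2.3 and 2.36 FPKM in Vehicle, 2.68 and 3.22 in PA, 2.64 and 2.66 in PA+NTP, 3.77 and 3.56 in LA, and 1.82 and 2.66 in LA+NTP. The LA libraries were the highest, and the 2 LA+NTP libraries spanned the Vehicle level. Ccne2 rose with LA (log2 fold change 0.70, SE 0.17, adjusted p = 4.39e-03) and fell when NTP was added to LA (-0.74, SE 0.16, adjusted p = 1.50e-03). Ccne2 has the lowest GC content of the 40 (36.3%), and with the GC trend removed its log2 fold changes were 0.18 and -0.12 and neither was called. The fall was also not called without LA+NTP replicate 1 (-0.50), and exons of Ccne2 overlap those of Ints8 on the opposite strand, which share 18.6% of its 31-base sequences.

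The remaining genes of S phase entry changed little, apart from E2f2. E2f2, an activating E2F factor, stood at 0.51 and 0.46 FPKM in Vehicle, 0.32 and 0.35 in PA, 0.39 and 0.45 in PA+NTP, 0.29 in both LA libraries, and 0.64 and 0.51 in LA+NTP. It rose when NTP was added to LA (log2 fold change 0.94, SE 0.25, adjusted p = 5.21e-03). This was not called with the GC trend removed (0.52) or without LA+NTP replicate 1 (0.78). Cdk2, the kinase of this step, had the highest mean level of the group, at 8.64 and 9.6 FPKM in Vehicle, 8.06 and 8.32 in PA, 9.56 and 10.1 in PA+NTP, 8.41 and 8.07 in LA, and 10.1 and 9.8 in LA+NTP. Its log2 fold changes lay between -0.12 and 0.21 in the 4 comparisons. Ccne1, E2f1, E2f3 and Rb1 lay between -0.32 and 0.29, with none called.

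Among the CDK inhibitors, only Cdkn2c was called, on few reads. Cdkn2c, which encodes the Cdk4 and Cdk6 inhibitor p18, stood at 1.16 and 0.3 FPKM in Vehicle, 1.79 and 0.95 in PA, 0.5 and 0.54 in PA+NTP, 1.15 and 0.88 in LA, and 0.66 and 0.59 in LA+NTP. The Vehicle libraries alone differed by more than those of any other group. Cdkn2c fell when NTP was added to PA (log2 fold change -1.35, SE 0.52, adjusted p = 0.0485), from 26 and 41 counts to 17 and 19. This call was lost with library-size scaling (-1.29, adjusted p = 0.0572), with the GC trend removed (-1.18, adjusted p = 0.110) and in 7 of the 10 fits that leave out a library, namely either PA+NTP, LA or LA+NTP library or PA replicate 1, with log2 fold changes of -1.43 to -0.92.

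Cdkn1a, the most abundant of the 40 genes, encodes p21 and is activated by p53. It stood at 144.6 and 148.9 FPKM in Vehicle, 93.4 and 104.8 in PA, 130.2 and 159.9 in PA+NTP, 119.6 and 126.7 in LA, and 160.4 and 177.8 in LA+NTP. The PA libraries were the lowest of the 10, but the log2 fold change of -0.53 (SE 0.093, adjusted p = 3.71e-04) was below the fold of 1.5, as were those of 0.49 and 0.42 when NTP was added to PA and LA. Cdkn1b, which encodes p27, had log2 fold changes of 0.11 with PA, 0.34 with LA and -0.33 with NTP on either fatty acid. Cdkn2d, which encodes p19, lay below 1 FPKM in all 10 libraries and was not called.

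The helicase subunits Mcm2 to Mcm7 form 1 hexamer, yet Mcm5 was the only subunit called in these 4 comparisons. Mcm5 stood at 3.79 and 4.49 FPKM in Vehicle, 3.07 and 3.03 in PA, 4.79 and 4.49 in PA+NTP, 2.79 and 2.37 in LA, and 4.58 and 4.88 in LA+NTP. All 4 libraries with a fatty acid alone were below the other 6. Mcm5 fell with LA (log2 fold change -0.64, SE 0.12, adjusted p = 7.19e-04) and rose when NTP was added to LA (0.83, SE 0.11, adjusted p = 3.39e-05). With PA the value was -0.42 and with NTP added to PA 0.55, neither called. With the GC trend removed, the rise was still called and the fall (-0.52) was not, and the fall was also lost without Vehicle replicate 2 (-0.50) or LA replicate 2 (-0.53).

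The other subunits stayed within a fold of 1.5 in these 4 comparisons. Mcm7, the highest of them, stood at 22.2 and 22.6 FPKM in Vehicle, 19.1 and 19.98 in PA, 23.3 and 23.4 in PA+NTP, 18.9 and 18.4 in LA, and 24.7 and 21.3 in LA+NTP, although 47.6% of its 31-base sequences occur in other genes. Mcm3 stood at 9.11 and 9.39 FPKM in Vehicle, 9.46 and 10.9 in PA, 13.7 and 14.6 in PA+NTP, 7.5 and 8.01 in LA, and 10.4 and 10.3 in LA+NTP. The PA+NTP libraries were the highest of the 10 for Mcm3, and Mcm3 was the only 1 of the 40 genes called between PA+NTP and Vehicle, where 2.85% of all genes were called in either direction. Its log2 fold change of 0.59 (SE 0.083, adjusted p = 5.12e-04) lay at the fold of 1.5, and it fell just short of it in 7 of the 10 fits without 1 library (0.51 to 0.58, without either PA library, either LA library, Vehicle replicate 1, PA+NTP replicate 2 or LA+NTP replicate 2). With the GC trend removed, this call of Mcm3 was kept. Mcm2, Mcm4 and Mcm6 had log2 fold changes between -0.18 and 0.21 in the first 4 comparisons.

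The licensing factor Cdt1 and its inhibitor geminin, encoded by Gmnn, had log2 fold changes of opposite sign in the 4 comparisons as fitted, and in 2 of the 4 once the GC trend was removed. Gmnn stood at 10.2 and 10.5 FPKM in Vehicle, 14.02 and 12.1 in PA, 9.69 and 8.15 in PA+NTP, 11.3 and 12.3 in LA, and 8.6 and 8.42 in LA+NTP. The NTP libraries were the lowest and the fatty acid libraries the highest. Gmnn fell when NTP was added to PA (log2 fold change -0.59, SE 0.13, adjusted p = 1.72e-03), a fold of 1.51. The value was -0.51 when NTP was added to LA, which was below the threshold. The call was lost with library-size scaling (-0.53), with a minimum mean of 1 FPKM (-0.56), with the GC trend removed (-0.47), and without PA replicate 1 or PA+NTP replicate 2 (-0.50 for each). Cdt1 had log2 fold changes of 0.57 and 0.58 with NTP, just below the fold of 1.5, and of -0.25 with PA and -0.48 with LA. Its transcript has a GC content of 58.8%, and with the trend removed its values with NTP were 0.11 on PA (adjusted p = 0.619) and -0.00 on LA (adjusted p = 0.987), and those with PA and LA were 0.17 and -0.02.

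In nucleotide supply and the replication clamp, 1 of 4 genes was called. Tyms, which encodes thymidylate synthase, stood at 7.63 and 7.68 FPKM in Vehicle, 10.3 and 10.8 in PA, 8.57 and 7.42 in PA+NTP, 10.8 and 11.7 in LA, and 7.32 and 8.54 in LA+NTP. All 4 libraries with a fatty acid alone were above the other 6. Tyms rose with LA (log2 fold change 0.60, SE 0.092, adjusted p = 1.39e-04), while its 0.50 with PA, -0.46 with NTP added to PA and -0.54 with NTP added to LA were below the fold of 1.5. The call with LA was lost with library-size scaling (0.56), with the GC trend removed (0.53) and without LA replicate 2 (0.55), since the fold lay at the threshold. Of the 31-base sequences of Tyms, 21.5% occur in other genes, with 9.51% in the pseudogene Tyms-ps.

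Pcna was also highest in the 4 libraries with a fatty acid alone, narrowly so, at 41.1 and 40.4 FPKM in Vehicle, 58.8 and 56.6 in PA, 41.6 and 50.3 in PA+NTP, 51.6 and 50.3 in LA, and 41.4 and 41.8 in LA+NTP. Its log2 fold changes of 0.53 with PA, 0.37 with LA, -0.38 with NTP added to PA and -0.33 with NTP added to LA had adjusted p of 0.000199, 0.00343, 0.00211 and 0.00396 but were below the fold of 1.5. After removal of the GC trend they were 0.38, 0.18, -0.24 and -0.12, with adjusted p of 0.00452, 0.168, 0.0549 and 0.324. A pseudogene, Pcna-ps2, shares 38.0% of the 31-base sequences of Pcna. Rrm1 and Rrm2, the subunits of ribonucleotide reductase, had log2 fold changes between -0.13 and 0.28, with none called.

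The genes of G2 and mitosis held 6 of the 13 calls made when NTP was added to a fatty acid. When NTP was added to PA, 3 of the 11 were called higher and all 11 had a log2 fold change above 0, with a median of 0.39. When it was added to LA, 3 of the 11 were called higher and 8 had a value above 0, with a median of 0.51. Of all tested genes, 8.74% and 11.7% were called higher in these comparisons, and 50.9% and 50.8% were above 0. Without PA replicate 2 or PA+NTP replicate 2, 9 and 8 of the 11 were above 0 with NTP added to PA (medians 0.75 and 0.36), without LA+NTP replicate 2 the median with NTP added to LA was 0.29, and with the GC trend removed 10 of 11 and 9 of 11 were above 0 in the 2 comparisons. Summed marker levels of macrophages and stellate cells were also higher with NTP, with 202 to 238 FPKM in PA, 266 to 296 in PA+NTP, 126 to 130 in LA and 182 to 196 in LA+NTP for macrophages. For stellate cells the sums were 9.34 to 10.6 FPKM in PA, 12.5 to 15.0 in PA+NTP, 12.0 to 12.3 in LA and 17.2 to 18.0 in LA+NTP. Few single markers were called. Of 6 tested macrophage markers, 1 was called higher with NTP added to PA and 0 with NTP added to LA. Of 7 stellate cell markers, 2 were called higher in each comparison, and 0 markers of either type were called lower. Summed hepatocyte markers were higher with NTP as well, with 0 of 7 called higher on PA and 1 on LA. They summed to 2310 to 2540 FPKM in PA, 2800 to 3130 in PA+NTP, 3320 to 3380 in LA and 3940 to 4180 in LA+NTP. Summed markers of the remaining cell types had no such common direction. Sinusoidal endothelial markers summed to 25.5 to 28.1 FPKM in PA, 23.6 to 26.6 in PA+NTP, 30.0 to 30.2 in LA and 32.5 to 34.3 in LA+NTP, and cholangiocyte markers to 407 to 529, 569 to 704, 637 to 678 and 664 to 692. Lymphocyte markers were lower with NTP, at 1.01 to 1.31 FPKM in PA, 0.79 to 0.88 in PA+NTP, 1.02 to 1.42 in LA and 0.64 to 0.71 in LA+NTP. Their part in the result was not tested.

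Mki67, which encodes the proliferation marker Ki-67, was the best measured of these genes. It stood at 0.93 and 0.82 FPKM in Vehicle, 0.53 and 0.5 in PA, 1.09 and 0.88 in PA+NTP, 0.8 and 0.79 in LA, and 1 and 1.13 in LA+NTP. The PA libraries were lower than every other library. Mki67 fell with PA (log2 fold change -0.73, SE 0.15, adjusted p = 1.25e-03) and rose when NTP was added to PA (0.89, SE 0.15, adjusted p = 2.20e-04). Both calls were kept with the GC trend removed and in all 10 fits that leave out a library. With LA the value was -0.09 and with NTP added to LA 0.39, neither called.

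Plk1, a kinase of mitotic entry and exit, was the only 1 of these 11 genes called higher with NTP on both fatty acids. It stood at 0.67 and 0.59 FPKM in Vehicle, 0.24 and 0.62 in PA, 1.31 and 0.88 in PA+NTP, 0.49 and 0.4 in LA, and 0.98 and 1.17 in LA+NTP. All 4 NTP libraries lay above the other 6. Plk1 rose by 1.12 on the log2 scale when NTP was added to PA (SE 0.35, adjusted p = 0.0180) and by 1.22 when it was added to LA (SE 0.34, adjusted p = 7.60e-03). The counts were low, at 7 and 53 in the PA libraries, and 19.2% of the 31-base sequences of Plk1 occur in other genes, mostly in Plk-ps1. Neither rise was called with the GC trend removed (0.83, adjusted p = 0.0882, and 0.85, adjusted p = 0.0741). The first was not called without PA replicate 1 (0.77) or PA+NTP replicate 1 (0.82) and was 2.10 without PA replicate 2, and the second was not called without LA replicate 2 (1.09) or LA+NTP replicate 2 (1.08).

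Ccnb1 and Ccnb2 encode the B-type cyclins that act with Cdk1, and each was called on one fatty acid only. Ccnb1 stood at 0.37 and 0.34 FPKM in Vehicle, 0.26 and 0.25 in PA, 0.24 and 0.4 in PA+NTP, 0.16 and 0.05 in LA, and 0.6 and 0.36 in LA+NTP. The LA libraries, with 12 and 3 counts, were the lowest. Ccnb1 fell with LA (log2 fold change -1.57, SE 0.56, adjusted p = 0.0372) and rose when NTP was added to LA (1.995, SE 0.51, adjusted p = 4.71e-03), and both calls were kept with the GC trend removed. The fall was lost without either Vehicle library (-1.51 and -1.64) or LA replicate 2 (-1.07) and was -2.60 without LA replicate 1, and the rise was 1.496 (adjusted p = 0.0504) without LA replicate 2 and 3.02 without LA replicate 1. A pseudogene, Ccnb1-ps, shares 40.2% of the 31-base sequences of Ccnb1.

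Ccnb2 stood at 0.38 and 0.56 FPKM in Vehicle, 0.35 and 0.18 in PA, 0.57 and 0.65 in PA+NTP, 0.48 and 0.61 in LA, and 0.44 and 0.62 in LA+NTP. The PA libraries, with 7 and 11 counts, were the lowest. Ccnb2 rose when NTP was added to PA (log2 fold change 1.32, SE 0.47, adjusted p = 0.0350), and this was not called by DESeq2 (1.28, adjusted p = 0.0822), with the GC trend removed (1.31, adjusted p = 0.0508), in a fit of only the PA and PA+NTP libraries (1.32, adjusted p = 0.0572), or without PA replicate 2 (0.75), either PA+NTP library (1.43 and 1.19) or LA+NTP replicate 2 (1.303).

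Aurka, a kinase of the spindle poles, had the highest mean level of the mitotic genes. It stood at 1.29 and 1.46 FPKM in Vehicle, 1.72 and 1.41 in PA, 1.74 and 1.79 in PA+NTP, 0.83 and 1.33 in LA, and 2.23 and 1.99 in LA+NTP. The LA+NTP libraries were the highest of the 10. Aurka rose when NTP was added to LA (log2 fold change 0.94, SE 0.24, adjusted p = 3.95e-03). This was also called with the GC trend removed, but not without LA replicate 1 (0.62). The other 6 genes, Cdk1, Top2a, Aurkb, Bub1, Cdc20 and Birc5, which act in mitotic entry, chromosome separation and its checkpoint, were not called in any comparison. Of these, Top2a was called with NTP added to PA once the GC trend was removed.

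**Figure D3:**
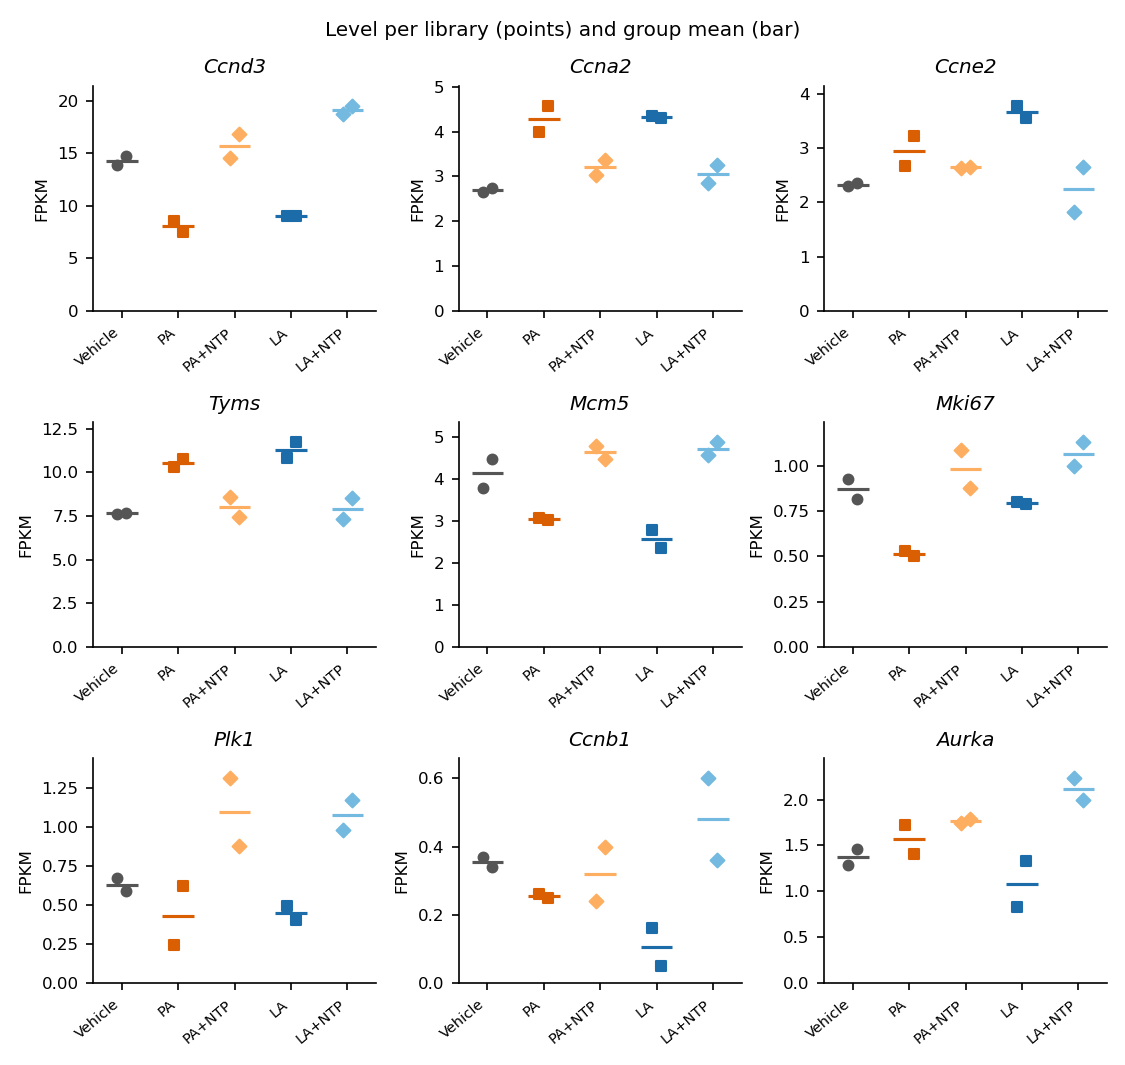
Level in FPKM (vertical axes, each from 0) of 9 of the called genes in the 5 groups, with 1 point per library and a bar at the group mean. Ccnd3 and Mcm5 are lower and Ccna2 and Tyms higher in all PA and LA libraries than in the other 6, and all 4 NTP libraries of Plk1 lie above the other 6.

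Promoter sequences are shown for the 5 mitotic genes called higher with NTP and for Mcm5, the called helicase subunit, so that the letters of the sites tied to cell cycle timing can be compared. Genes of S phase commonly carry E2F sites, and genes of G2 and mitosis a cell cycle homology region (CHR) and CCAAT boxes, which are bound by DREAM or B-Myb complexes and by NF-Y. Each line gives bases directly upstream of a RefSeq start on GRCm38.p6, written 5′ to 3′ along the gene's strand, with matches to the searched letters in capitals.
Mki67, chr7:135716380-135716579 (minus strand): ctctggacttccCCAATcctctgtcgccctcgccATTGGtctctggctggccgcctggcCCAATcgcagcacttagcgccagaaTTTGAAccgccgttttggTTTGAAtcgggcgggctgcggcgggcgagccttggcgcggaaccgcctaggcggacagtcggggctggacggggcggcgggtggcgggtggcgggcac
Ccnb1, chr13:100786487-100786636 (minus strand): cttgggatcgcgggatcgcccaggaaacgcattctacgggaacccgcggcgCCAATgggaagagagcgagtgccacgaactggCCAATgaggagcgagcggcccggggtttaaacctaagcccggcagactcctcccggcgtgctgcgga
Ccnb2, chr9:70421555-70421734 (minus strand): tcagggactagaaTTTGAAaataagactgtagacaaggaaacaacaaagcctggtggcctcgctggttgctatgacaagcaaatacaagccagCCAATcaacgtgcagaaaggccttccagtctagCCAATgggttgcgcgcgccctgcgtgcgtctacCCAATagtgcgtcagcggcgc
Aurka, chr2:172370571-172370720 (minus strand): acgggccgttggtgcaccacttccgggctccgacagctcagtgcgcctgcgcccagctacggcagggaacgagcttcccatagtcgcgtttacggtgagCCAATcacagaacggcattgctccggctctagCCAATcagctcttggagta
Plk1, chr7:122159285-122159434 (plus strand): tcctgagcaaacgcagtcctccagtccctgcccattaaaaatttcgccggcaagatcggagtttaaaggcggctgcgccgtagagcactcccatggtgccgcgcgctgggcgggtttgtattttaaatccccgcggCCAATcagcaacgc
Mcm5, chr8:75109329-75109508 (plus strand): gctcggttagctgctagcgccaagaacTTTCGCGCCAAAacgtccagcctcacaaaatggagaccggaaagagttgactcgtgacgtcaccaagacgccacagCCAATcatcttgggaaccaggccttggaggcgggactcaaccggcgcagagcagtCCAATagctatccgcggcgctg
The letters searched, on both strands, were TTTGGCGC, TTTCCCGC, TTTCGCGC and TTTGCCGC for E2F, TTTGAA and TTCGAA for the CHR, and CCAAT. The 2 E2F matches of Mcm5 overlap each other, on opposite strands, in the run at its first capitals. Mki67 and Ccnb2 hold CHR letters upstream of their starts, and all 6 stretches hold CCAAT letters. Aurka, Plk1 and Ccnb2 also hold CHR letters in the 50 bases after their starts, which are not printed. The start used for Ccnb1 was marked as matching a transcript start. Those used for Mki67, Ccnb2, Aurka, Plk1 and Mcm5 were marked as not matching, so positions relative to them are less certain.

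Windows of 300 bases, from 250 before to 50 after a start, were given for 32 of the 40 genes (38 windows). E2F letters were in 9 of these 38 windows (23.7%) and in 2.26% of all 32851 windows. CHR letters were in 12 (31.6%), against 19.2% of all windows, and CCAAT in 26 (68.4%), against 37.4%. Of the 2 windows of Ccnd3, neither held E2F or CHR letters. A match of letters is a description and not a bound site.

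Few of the 40 genes were called between the NTP groups and Vehicle or between the fatty acids. Between PA+NTP and Vehicle, 27 of the 40 had a log2 fold change above 0 (median 0.14, against 0.01 for all genes), and between LA+NTP and Vehicle 30 of the 40 (median 0.16, against 0.00). Between LA+NTP and Vehicle, 0 of the 40 were called by edgeR or DESeq2, with 8 at an unadjusted p under 0.05 in edgeR, and 0.0922% of all genes were called. All 11 mitotic genes had a log2 fold change above 0 in that comparison (0.16 to 0.87), with none called. Between PA and LA, given at different doses, 1 of the 40 was called, against 3.23% of all genes. This was Mki67, lower with PA by a log2 fold change of -0.64 (SE 0.15, adjusted p = 0.0140), which was not called without PA replicate 2 (-0.60), LA replicate 1 (-0.63) or LA replicate 2 (-0.66). This call of Mki67 was kept with the GC trend removed. The NTP effect under LA minus that under PA was called for 0 of the 40 genes by edgeR or DESeq2, with 6 at an unadjusted p under 0.05 in edgeR, and for 0% of all genes by edgeR. Calls made under one fatty acid and not the other, such as those of Ccnb1 and Ccnb2, were therefore not shown to differ between them.

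Removal of the GC trend changed which of the 40 genes were called. Calls went from 3 to 2 with PA, from 6 to 2 with LA, from 6 to 2 with NTP added to PA and from 7 to 4 with NTP added to LA, of which 2, 1, 1 and 3 were calls in both fits. The share of all tested genes called went from 14.9% to 8.36%, from 10.6% to 3.04%, from 13.9% to 6.12% and from 19.3% to 5.67% in the same comparisons. Across the 40 genes, which share libraries and depth, the Spearman correlation of the log2 fold change with GC content was -0.29, -0.55, 0.34 and 0.58 in these comparisons, and 0.24, -0.01, -0.15 and 0.04 after removal. Library-size scaling left 6 calls with NTP added to PA but turned the split from 4 higher and 2 lower to 6 higher and 0 lower, and that with LA from 3 and 3 to 2 and 4.

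**Figure D4:**
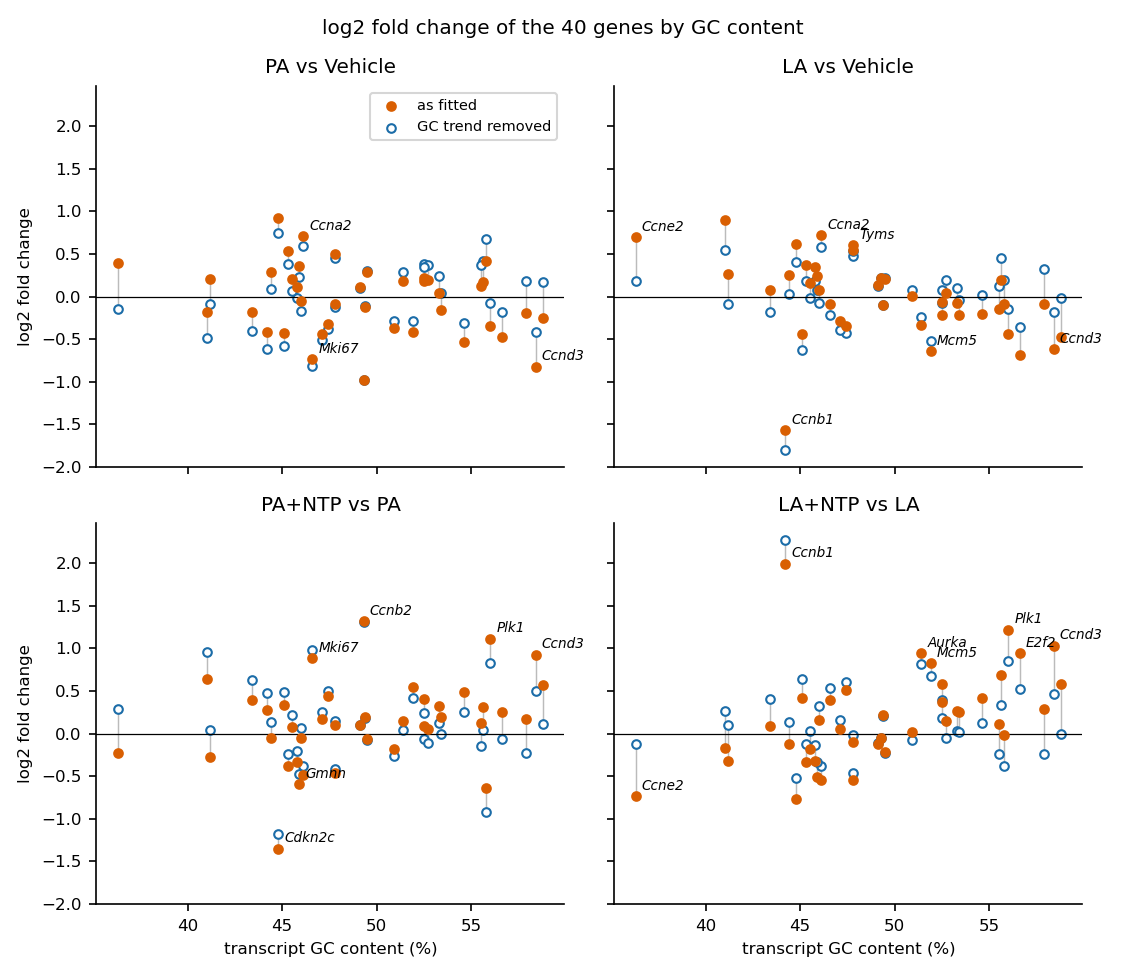
Log2 fold change of the 40 genes (vertical axis) against the GC content of their transcripts in percent (horizontal axis) in 4 comparisons, as fitted (filled) and with the GC trend removed (open), with a line joining the 2 values of a gene and names at called genes. Ccne2, at 36.3% GC, and Ccnd3, at 58.4%, move toward 0 in the LA panels, whereas Ccnb1 and Mki67 do not.

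A wider list of 160 other genes of the same pathways, of which 156 were tested, was counted in the same way. With PA 9 rose and 10 fell, with LA 4 rose and 8 fell, with NTP added to PA 13 rose and 6 fell, and with NTP added to LA 20 rose and 12 fell. These are 12.2%, 7.69%, 12.2% and 20.5% of the 156, against 14.9%, 10.6%, 13.9% and 19.3% for the whole set of tested genes. Removal of the trend brought these counts to 2 and 8, 0 and 1, 8 and 1, and 9 and 2, where 8.36%, 3.04%, 6.12% and 5.67% of all genes were called. Of the 156, 27 were called in at least 2 of the 4 comparisons, and those described next were picked from the 27 after their values were seen, so that they do not stand for the list.

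Some genes of mitosis and its control rose with NTP. Of 29 other mitosis genes tested, 3 were called higher and 0 lower with NTP added to PA. With NTP added to LA, 5 were called higher and 2 lower. For 15 other E2F and DREAM genes, the counts were 3 and 0 on PA, and 2 and 0 on LA. Of all tested genes, 8.74% were called higher and 5.11% lower on PA, and 11.7% and 7.57% on LA. For lists this short, these counts lay near what those shares give, so they do not set the lists apart from other genes. Ube2c, which encodes the ubiquitin-conjugating enzyme that works with the anaphase-promoting complex, stood at 6.01 and 3.89 FPKM in Vehicle, 1.61 and 1.1 in PA, 6.91 and 5.81 in PA+NTP, 1.54 and 1.17 in LA, and 5.17 and 5.47 in LA+NTP. The PA and LA libraries did not overlap the other 6. Ube2c fell by 1.92 with PA (SE 0.29, adjusted p = 9.59e-05) and by 1.79 with LA (SE 0.27, adjusted p = 1.35e-04) on the log2 scale. It rose by 2.28 when NTP was added to PA (SE 0.28, adjusted p = 1.72e-05) and by 1.93 when it was added to LA (SE 0.26, adjusted p = 2.80e-05), and with the GC trend removed the values were -1.82, -1.70, 2.17 and 1.80, all called. Foxm1, a transcription factor of G2 genes, rose with NTP added to PA (1.26, adjusted p = 1.39e-03) and to LA (1.20, adjusted p = 9.70e-04), from 0.21 and 0.25 FPKM in PA to 0.61 and 0.58 and from 0.27 in both LA libraries to 0.66 and 0.6, and was called in both with the trend removed. The kinetochore gene Cenpf (1.55 and 0.86) and the spindle midzone gene Prc1 (0.71 and 0.77) also rose with NTP on both, and were called with the trend removed. The calls of Ube2c, Foxm1 and Prc1 named here were kept in all 10 fits that leave out a library, and that of Cenpf with NTP added to LA was lost without LA replicate 1 (0.82) or LA+NTP replicate 2 (0.52). Other genes of this kind were called higher with NTP but were not called once the trend was removed, although their values stayed above 0. These were Mybl2, which encodes B-Myb (0.96, and 0.66 after removal), and the repressor E2f8 (0.78 and 0.73) with NTP added to PA, and Ccnf, which encodes cyclin F (0.69 and 0.45), and the DREAM subunit Lin37 (0.99 and 0.56) with NTP added to LA. The call of Mybl2 was also lost without PA replicate 1 (0.81) or PA+NTP replicate 1 (0.92), that of E2f8 without PA replicate 2 (0.57) or PA+NTP replicate 1 (0.49), and that of Ccnf without either LA library (0.69 and 0.67) or LA+NTP replicate 2 (0.41).

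Genes of replication went in both directions with NTP, and Orc4 is one that was higher under the fatty acids and lower with NTP. Orc4, a subunit of the origin recognition complex, stood at 12.9 and 14.2 FPKM in Vehicle, 20.3 and 21.7 in PA, 14.5 in both PA+NTP libraries, 21.5 and 20.4 in LA, and 13.1 and 12.6 in LA+NTP. Its log2 fold changes of 0.71 and 0.74 with PA and LA and -0.61 and -0.79 with NTP were called, but with the GC trend removed they were 0.20, 0.24, -0.11 and -0.19 and none was called. The call of Orc4 with NTP added to PA was also lost with library-size scaling (-0.55) and without PA replicate 2 (-0.56) or PA+NTP replicate 1 (-0.55). Tipin, which stabilizes replication forks, and Ccnc, the cyclin of the Mediator kinase, were also called in all 4 comparisons, and in none with the trend removed. Tipin was not called with LA without LA replicate 1 (0.54) or with library-size scaling (0.57), or with NTP added to PA without PA+NTP replicate 1 (-0.55).

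Other replication genes rose with NTP, but not all polymerase subunit genes did. Pola2 (0.62 on PA and 0.59 on LA) and Pold1 (0.61 and 0.62) rose on both fatty acids. The polymerase subunit gene Pola1 was called lower on both (-0.67 and -0.79). With the GC trend removed, Pola2 was at 0.38 and 0.29, Pold1 at 0.07 and -0.08 and Pola1 at -0.37 and -0.38, with none called. In fits that leave out a library, Pola1 stayed between -0.72 and -0.62 on PA and between -0.91 and -0.67 on LA. The rise of Pola2 was lost on PA without PA+NTP replicate 2 (0.47) and on LA without either PA+NTP library (0.57 for each), LA replicate 1 (0.56) or LA+NTP replicate 2 (0.46), and that of Pold1 on PA without PA replicate 1 (0.48) or PA+NTP replicate 1 (0.47). Cdc6, which loads the helicase, rose by 1.03 with NTP on either fatty acid, and with the trend removed its values were 1.012 on PA, not called, and 1.03 on LA, called. Its calls were lost on PA without either PA library (0.87 and 1.38) or PA+NTP replicate 1 (0.53), and on LA without either LA library (1.02 and 1.03) or LA+NTP replicate 2 (0.90). Gins2, a subunit of the helicase's GINS partner, rose with NTP added to LA (0.82), also with the trend removed (0.59).

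**Figure D5:**
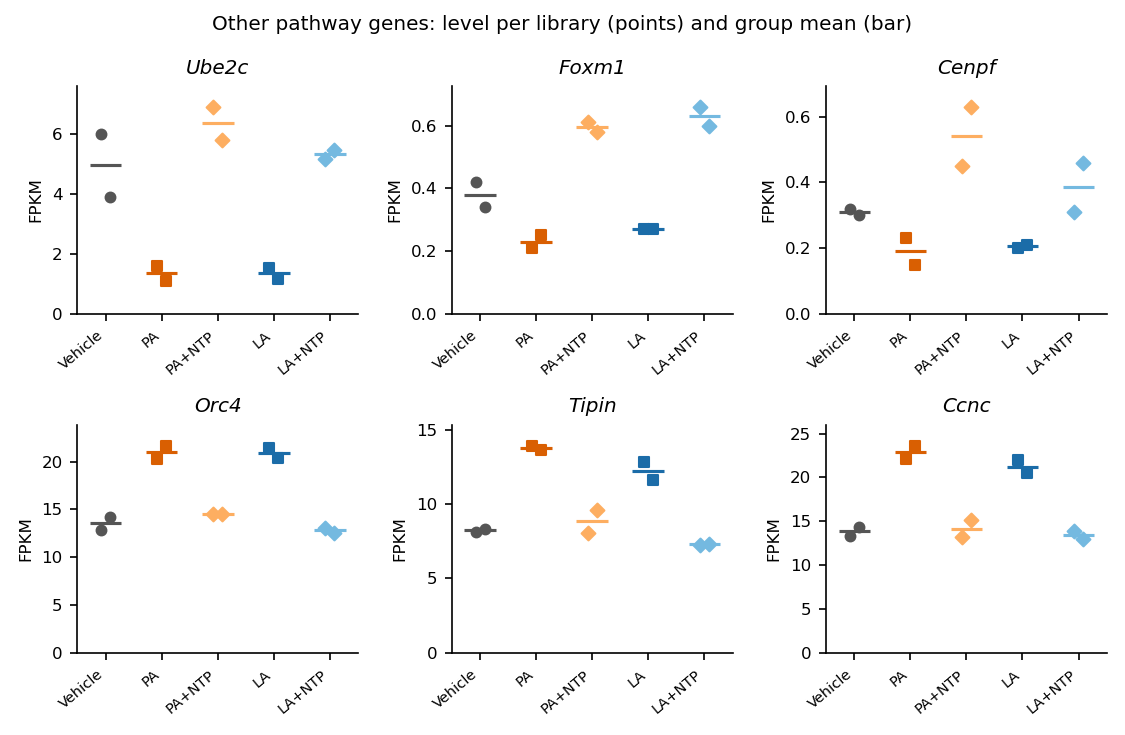
Level in FPKM (vertical axes, each from 0) of 6 other genes of the cell cycle, picked after their values were seen, in the 5 groups, with 1 point per library and a bar at the group mean. The upper 3 genes are low and the lower 3 high in the PA and LA libraries, with no overlap with the other 6 libraries.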

How the data were processed

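RNA was sequenced from 10 libraries of primary mouse hepatocytes, 2 in each of 5 groups given by the labels, with the NTP dose from a legend of the study. Replicate numbers follow the sample titles, and in every group the deposited files carry at least 1 other number. Per the methods, the authors aligned reads with HISAT and Bowtie2 and quantified genes with RSEM. The submitters' processing notes name the build mm10, and tool versions and the strand setting were not stated in any source used. The authors deposited, for each gene, the expected count, which is not normalized, and the FPKM value, which they scaled for length and depth. The tables leave out genes under 0.01 FPKM, which were set to 0.

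Gene IDs were matched to RefSeq symbols (17998 of 18055 by ID and 11 by accession). Expected counts were rounded and fitted with edgeR 4.0.16 in R 4.3.3, with 5 groups as one factor, TMM factors (0.977 to 1.04), filterByExpr (14097 genes kept and 3958 dropped) and the quasi-likelihood F test. Genes were called at an adjusted p under 0.05 and a fold of at least 1.5. The NOISeq method of the study was not run. GC content came from GENCODE M21 transcripts (98.4% of genes), and its trend was removed by loess offsets (span 0.4). Alternatives were DESeq2 1.42.0, other scalings and filters, fits of only the groups compared, a replicate block and leaving out each library. The scripts were tested on simulated counts.

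The 40 genes and all lists were chosen with earlier results of these data known. Values in every library are given for genes called in any of 8 comparisons and for the most abundant gene of each role, and other genes of the pathway were eligible where called in at least 2 of the first 4 comparisons. Of the 27 that were, values are given for some only, picked after the values were seen. Depth ranged from 13142588 to 60046937 expected counts, which limits the precision of genes with few counts.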

Additional observations from a re-analysis of the deposited data

Results flagged for a closer look

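Mki67 was called between PA and LA. Its log2 fold change of PA against LA was -0.64 (SE 0.15, edgeR adjusted p = 0.0140), the difference between the effects of PA and of LA against the same Vehicle libraries, and both PA libraries were below both LA libraries. The call was lost without PA replicate 2 (-0.60), LA replicate 1 (-0.63) or LA replicate 2 (-0.66), and was kept with the GC trend removed. The doses of PA and LA differ.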

How the results depend on the processing

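No called log2 fold change of the 40 genes changed sign under any alternative. Among the other genes of the pathway, with the GC trend removed, Jund went to 0.14 with PA and -0.24 with NTP added to LA and Pold1 to -0.0775 with NTP added to LA, each opposite to its sign without that removal, and with the replicate block added the same values were 0.14, -0.24 and -0.0754. DESeq2, DESeq2 size factors, library-size scaling and no filter on low counts kept the number of called genes within 1.5 times in all 8 comparisons. Without the fold threshold the called genes were 13 with PA, 13 with LA, 17 with NTP added to PA, 22 with NTP added to LA, 3 between PA+NTP and Vehicle and 3 between PA and LA. With the GC trend removed they were 2 with LA, 2 with NTP added to PA and 4 with NTP added to LA. A minimum mean of 1 FPKM, which leaves 29 of the 40 genes, gave 2 with NTP added to PA and 0 between PA and LA. A fit of only the groups compared gave 0 between PA+NTP and Vehicle. In fits without 1 library the number called ranged from 3 to 4 with PA, 3 to 7 with LA, 4 to 6 with NTP added to PA, 5 to 9 with NTP added to LA, 0 to 1 between PA+NTP and Vehicle and 0 to 1 between PA and LA, and 9 of 24 calls were kept in all 10 such fits. Genes with few counts, such as Ccnb1 and Ccnb2, limit what these depths can show.

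The correlation of deviations of same-numbered libraries lay between -0.0692 and 0.127 over 10 pairs of groups, which gives no clear pairing by replicate number. These values cannot show whether libraries shared a source, because the deposited files number the replicates otherwise than the titles. With the replicate block, 8 genes instead of 7 were called with NTP added to LA (Cdt1 was added), and the number called was the same in the other comparisons. With the GC trend removed and the replicate block, 3 were called with LA, 3 with NTP added to PA and 4 with NTP added to LA.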
